A study of Mus musculus with 18 samples.

Results

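The alpha and beta globin gene clusters of mouse erythroblasts were described through the chromatin loops and domains that a Micro-C study listed around them. A loop belonged to the alpha set when at least 1 of its anchors overlapped positions 32080000 to 32230000 of chromosome 11, the window of Hba-a1, Hba-a2 and their upstream enhancers. It belonged to the beta set when an anchor overlapped positions 110900000 to 111100000 of chromosome 7, the window of Hbb-b1, Hbb-b2, Hbb-y and the locus control region. Of 20926 loops in the list, 15 met this rule, 11 at alpha globin and 4 at beta globin. Of 13483 domains, 8 overlapped the windows, 3 at alpha globin and 5 at beta globin. The rule used positions only.

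Micro-C cuts chromatin between nucleosomes with micrococcal nuclease, ligates DNA ends that are close together in the nucleus and sequences the joined fragments. A loop is a pair of places, its anchors, that were found joined more often than their surroundings, and a domain is a stretch whose parts were joined preferentially with each other. The series has 18 libraries of 1 cell line, G1E-ER4, a mouse erythroblast line that lacks its own GATA1 and carries GATA1 fused to an oestrogen receptor domain. All libraries came from the LDB1-AID subline, in which LDB1 carries an auxin-inducible degron, 9 of them untreated and 9 treated with auxin for 4 h. The labels do not say whether the GATA1 fusion was activated. The lists hold no value for a library or a treatment, and which libraries entered them is not given in the sources used here, so the effect of auxin on the globin loops was not analysed here. Read depth is likewise unknown here, no value could be repeated over libraries, and a contact absent from the list may be present in the cells below the threshold of the list. All loop and domain coordinates are in mm9, the build in the submitters' processing notes.

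Haemoglobin is built from alpha-like and beta-like chains that are encoded in separate clusters on different chromosomes. Hba-x and Hbb-y code for embryonic chains, whereas Hba-a1 and Hba-a2 code for adult alpha chains and Hbb-b1 and Hbb-b2 for adult beta chains. The alpha genes are driven by enhancers upstream of the cluster, several of them inside introns of the neighbouring gene Nprl3, and the beta genes by the locus control region, which lies beyond Hbb-y. LDB1 binds no DNA itself. It joins the DNA-binding factors GATA1 and TAL1 through LMO2 and can link such complexes at distant sites, and contact between the locus control region and the beta genes is a textbook example.

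No gene annotation of mm9 was used, so gene starts were not placed on the anchors. A RefSeq gene table of GRCm38.p6 gave the order of genes. At alpha globin it lists, towards higher coordinates, Snrnp25, Rhbdf1, Mpg, Nprl3, Hba-x, Hba-a1, Hbq1b, Hba-a2, Hbq1a, Gm46275 and Sh3pxd2b. At beta globin it lists Olfr67, Hbb-bt, Hbb-bs, Gm15115, Hbb-bh3, Hbb-bh2, Hbb-bh1, Hbb-y and Olfr66. Hbb-bt and Hbb-bs are the adult beta genes of the reference strain, and Hbb-b1 and Hbb-b2 those of another haplotype. The table holds Hbb-b1 and Hbb-b2 outside this order.

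The promoters of the clusters are shown because the LDB1 complex reaches DNA through GATA motifs and E-boxes. Of the 5 globin genes named in the rule, Hba-a1, Hba-a2 and Hbb-y had an entry in the RefSeq promoter table (GRCm38.p6), as had Hbb-bt, Hbb-bs and Hba-x. Each sequence is the 250 bases before the gene's start, 5′ to 3′ in the direction of the gene. Capitals mark GATA matches (the words AGATAA or TGATAA and the words AGATAG or TGATAG), the word CACCC and the word CCAAT, each on either strand.
Hba-a1: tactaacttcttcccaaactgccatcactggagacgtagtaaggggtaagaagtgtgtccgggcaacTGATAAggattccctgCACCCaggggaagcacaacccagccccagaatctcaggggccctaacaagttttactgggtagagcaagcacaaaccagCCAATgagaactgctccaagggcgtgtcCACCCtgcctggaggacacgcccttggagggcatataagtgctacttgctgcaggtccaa
Hbb-bt: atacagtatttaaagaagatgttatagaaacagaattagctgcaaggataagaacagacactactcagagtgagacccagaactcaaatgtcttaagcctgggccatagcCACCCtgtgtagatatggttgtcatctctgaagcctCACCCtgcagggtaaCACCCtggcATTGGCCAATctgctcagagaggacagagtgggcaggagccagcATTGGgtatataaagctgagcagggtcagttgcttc
Hbb-bs: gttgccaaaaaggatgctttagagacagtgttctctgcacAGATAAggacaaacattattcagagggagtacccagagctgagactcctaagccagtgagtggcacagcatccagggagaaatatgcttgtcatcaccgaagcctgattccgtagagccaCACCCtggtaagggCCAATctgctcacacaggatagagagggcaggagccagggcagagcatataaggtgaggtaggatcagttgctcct
Hbb-y: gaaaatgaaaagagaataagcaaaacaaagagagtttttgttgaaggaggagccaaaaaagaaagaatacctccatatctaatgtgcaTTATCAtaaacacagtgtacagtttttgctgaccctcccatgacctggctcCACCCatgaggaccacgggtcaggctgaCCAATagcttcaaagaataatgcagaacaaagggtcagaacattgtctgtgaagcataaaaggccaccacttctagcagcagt

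The coordinates of these sequences are in GRCm38.p6. They were not converted to mm9 here, so they cannot be set directly against those of the loops. The Hba-a1 sequence lies at chr11:32283422-32283671 on the plus strand. The others lie at chr7:103813924-103814173 for Hbb-bt, chr7:103827929-103828178 for Hbb-bs and chr7:103853208-103853457 for Hbb-y, all 3 on the minus strand. The Hba-a2 entry, which runs past the start, shares an unbroken run of 297 of 300 bases with that of Hba-a1, so it is not printed. Hbb-bs and Hbb-bt were compared by another measure, a gapped alignment of the 250 bases before the start. They were identical at 172 of 255 aligned positions (67.5%), a share not comparable with the run above. Hba-a1 held 1 GATA match, 183 to 178 bases before the start, which overlapped a match to the E-box CANNTG, at 187 to 182 bases, by 2 bases. Hbb-bs and Hbb-y each held 1 GATA match, and Hbb-bt held 0. Hbb-bs held 1 E-box, Hbb-bt 2 and Hbb-y 0. Each of the 4 promoters had CACCC, the kind of site that the erythroid factor KLF1 binds, and CCAAT. The promoter of the embryonic gene Hba-x, not printed, held 2 GATA matches, 2 E-boxes and 2 CACCC words but 0 CCAAT words. Among 32851 promoters of the table, 26.5% held a GATA match in these 250 bases, 66.2% an E-box, 52.0% CACCC and 33.8% CCAAT. These matches describe letters only, and no binding was measured.

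At alpha globin the 11 loops joined 7 anchor regions in 9 distinct region pairs. An anchor region is a set of overlapping anchors merged over the whole list, and each anchor is 10000 bp wide. There were 5 regions in the window, called regions 1 to 5 here, at positions 32078001 to 32088000, 32112001 to 32122000, 32130001 to 32152000, 32182001 to 32192500 and 32216001 to 32230000. Another 2 regions lay at lower coordinates, the distal one at 31570001 to 31582500 and the near one at 32027501 to 32046000. There was no region outside the window at higher coordinates, and 9 of the 11 loops had both anchors in the window.

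**Figure D1:**
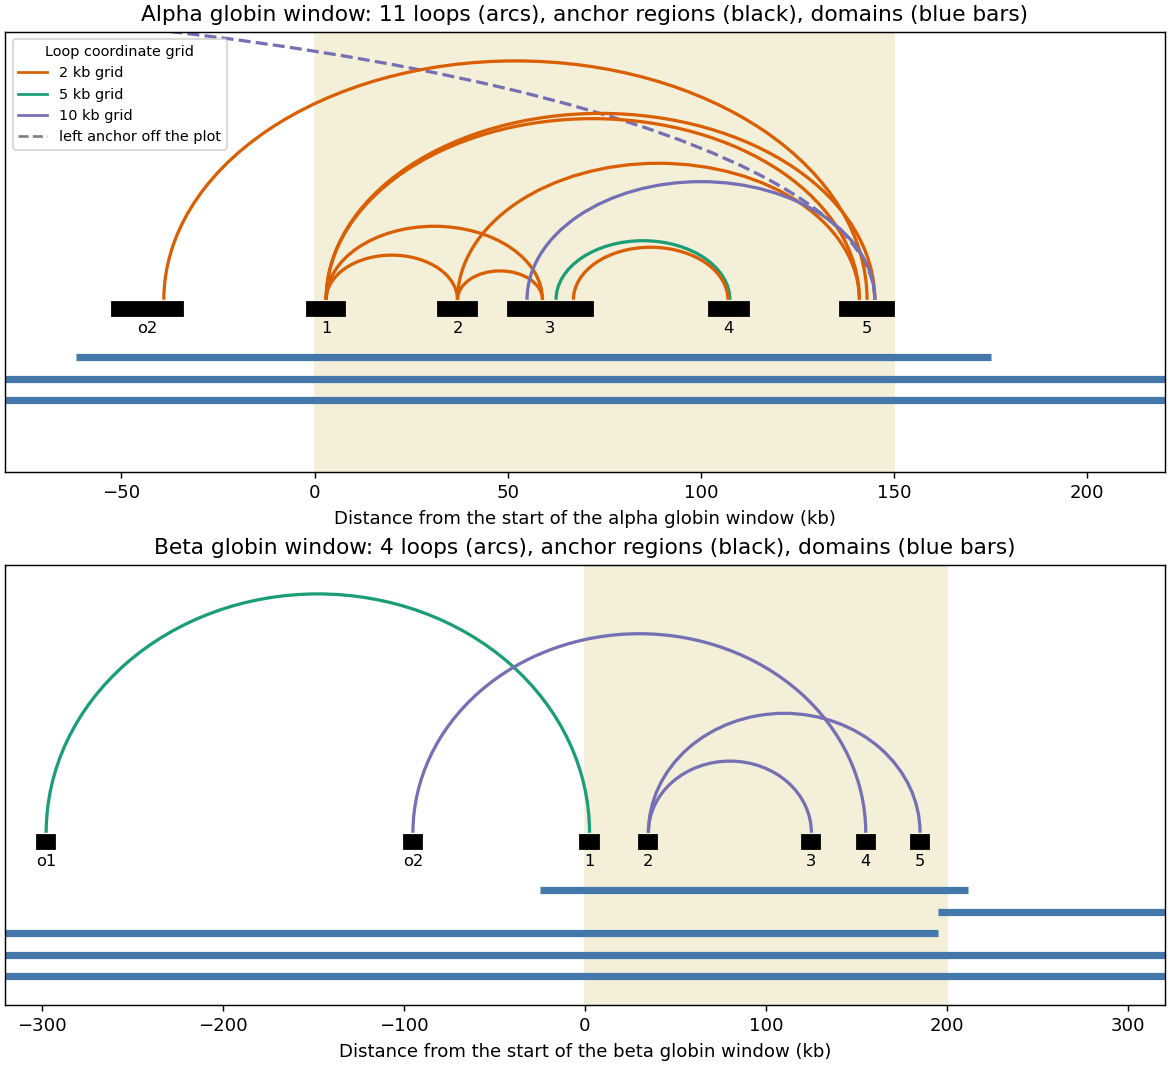
Maps of the alpha globin (top) and beta globin (bottom) windows, shaded, with distance from the window's start in kb. Arcs are loops coloured by coordinate grid, black boxes are anchor regions (o marks regions outside the window), and blue bars are domains, ordered by size and clipped at the edges; the dashed arc is the 650 kb loop, whose distal anchor is off the plot. At alpha globin 5 regions in the window are tied together by 9 loops, and at beta globin the arcs are fewer and wider.

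Regions 1, 2, 3 and 5 were all linked to each other. Region 1 was joined to region 2 by a loop of 34 kb, to region 3 by a loop of 56 kb and to region 5 by loops of 138 and 142 kb. The loops of 138 and 142 kb overlapped each other at both anchors, so they count as 1 contact. Region 2 was joined to region 3 by the shortest loop of the set, 22 kb, and to region 5 by a loop of 104 kb. The remaining side, between regions 3 and 5, was a single loop of 90 kb on a 10 kb grid of positions. A grid is the step inferred here from the anchor starts. The loops of the other sides lay on a 2 kb grid. All 6 pairs that 4 regions can form were therefore in the list, within an extent of 152 kb.

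Such complete groups of 4 regions were uncommon in the list. There were 218 of them over all chromosomes, and 626 of 20368 anchor regions (3.07%) took part in at least 1. Their extents ran from 112 to 1967.5 kb with a median of 405.75 kb, and 6 of the 218 (2.75%) were no wider than the one at alpha globin, itself included. The alpha globin group was sought with all its regions in the 150 kb window, which limits its extent to about that width. The groups of the list had no such limit, so the extents are not comparable. The group depends on the 10 kb grid loop between regions 3 and 5, without which that pair is not linked. It also depends on how anchors are merged. Merging anchors up to 10 kb apart fused regions 2 and 3 and left 0 groups of 4, and merging only identical anchors also left 0, because regions 3 and 5 hold several offset anchors.

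Region 4 stood outside this group. It had 2 loops, of 40 and 45 kb, and both ran to region 3. These loops overlapped each other at both anchors, so they count as 1 contact. One lay on the 2 kb grid and the other on a 5 kb grid. Region 4 had no loop to region 5, the nearest region on its other side, nor to regions 1 and 2. It lay inside the 90 kb loop between regions 3 and 5.

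Region 3 was the widest region of the window at 22 kb and held 4 distinct anchors. The anchors joined to regions 1, 2 and 5 had midpoints at 55 and 59 kb from the start of the window. The anchors joined to region 4 had midpoints at 62.5 and 67 kb. The nearest anchors of these sets were thus 3.5 kb apart, less than the width of an anchor, and they came from different grids.

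**Figure D2:**
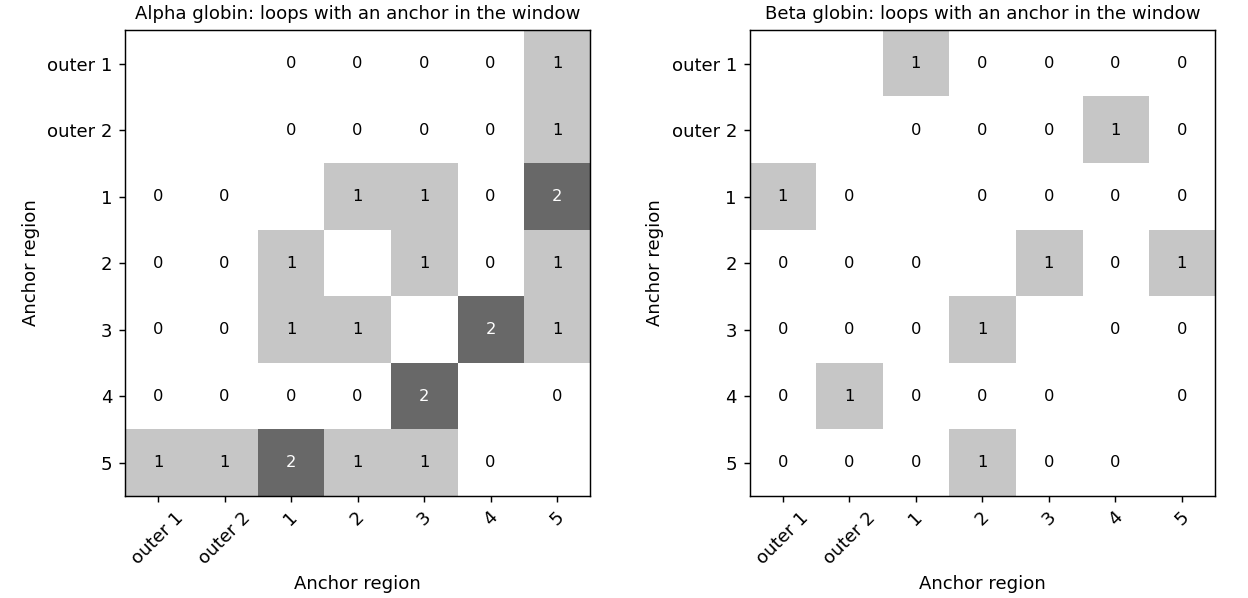
Number of loops between each pair of anchor regions at alpha globin (left) and beta globin (right), counting loops with an anchor in the window, with regions in order of position. Pairs of regions that both lie outside a window are blank. At alpha globin regions 1, 2, 3 and 5 are filled for every pair and region 4 is joined to region 3 alone, whereas at beta globin region 2 alone has more than 1 loop.

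Region 5 was the last region of the window and the one with the most loops there. It had 6 loops to 5 partner regions, and all 6 ran to lower coordinates. A loop of 182 kb joined it to the near outer region, 32036001 to 32046000 in that anchor, and a loop of 650 kb joined it to the distal outer region at 31570001 to 31580000. Of the anchor regions of the list, 4.00% had 6 or more loops. Region 3 had 5 loops (7.76% of regions had as many), region 1 had 4 (14.6%), region 2 had 3 (26.7%) and region 4 had 2 (47.9%). Of all regions, 52.1% had a single loop.

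The outer regions were also joined to each other, by a loop of 455 kb with no anchor in the window. With 4 such loops the network around alpha globin came to 9 regions and 15 loops, and it contained 6 groups of 3 mutually linked regions, 4 of them within the window. Region 5, the near outer region and the distal outer region formed 1 of the others.

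No loop reached from the alpha globin window to higher coordinates. The last member midpoint lay at 32225000 and the next loop in the list started from an anchor with its midpoint at 32245000. In the 20 kb between them 0 loops of the list passed over, long loops included. Such positions were not rare: of 257325 positions taken every 10 kb, 39.5% had no loop over them, and 24.1% on chromosome 11. Within the window the number of loops over a position was 6 to 8 for the stretch from 5 to 140 kb after its start. Every loop over the window had an anchor in it, since 0 loops passed over the whole of it.

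**Figure D3:**
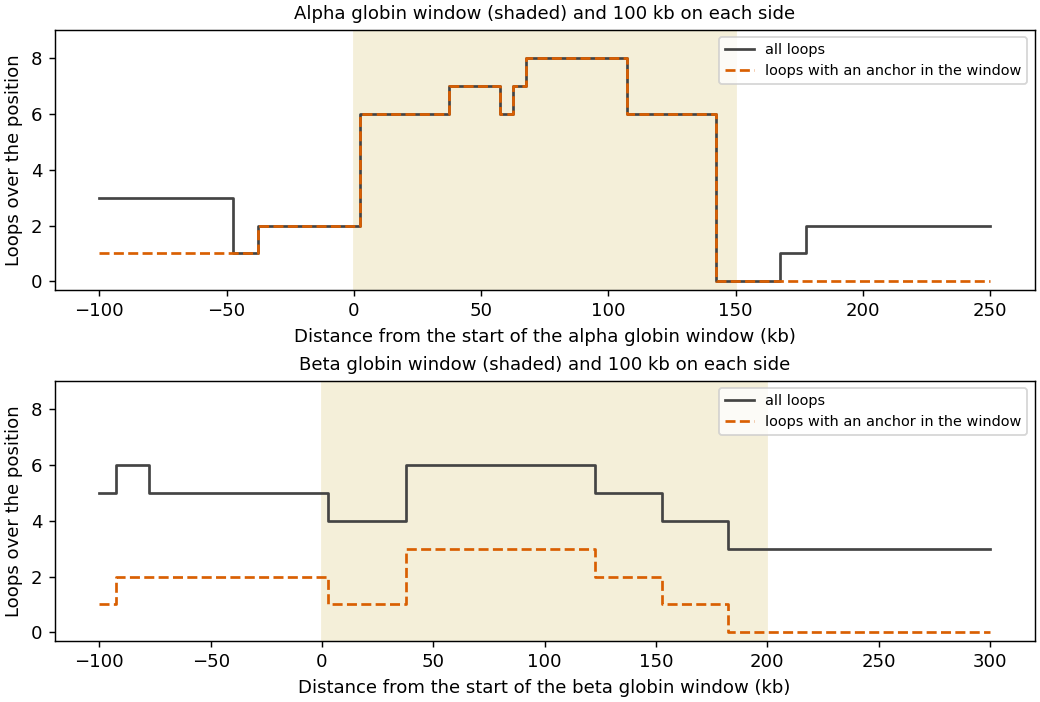
Number of loops that pass over each position, taken every 5 kb, for the alpha globin (top) and beta globin (bottom) windows, shaded, with 100 kb on each side; a loop passes over the positions between its anchor midpoints. At alpha globin the count reaches 8 and falls to 0 at the high end of the window, and at beta globin 3 loops without an anchor in the window pass over all of it.

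The beta globin window had 4 loops, in 4 region pairs and 3 separate networks. From the region at 110930001 to 110940000 loops ran to 111020001 to 111030000, a span of 90 kb, and to 111080001 to 111090000, a span of 150 kb. It was the only region of the window with more than 1 loop. These were also the only loops with both anchors in the window. A loop of 250 kb joined 111050001 to 111060000 with 110800001 to 110810000 below the window, and a loop of 300 kb joined 110897501 to 110907500, which overlapped the window by 7.5 kb at its edge, with 110597501 to 110607500.

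There were 0 groups of 3 mutually linked regions at beta globin. Of the 10 pairs that its 5 regions in the window can form, 2 were linked (20%). Of the 10 pairs of the 5 alpha globin regions, 7 were linked (70%). With 1 list and 2 loci this difference has no replicate check and was not tested.

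The middle of the beta globin window held no anchor. The stretch without one ran from 110940001 to 111020000, 80 kb, while the widest such stretch at alpha globin was 30 kb, from 32152001 to 32182000. As at alpha globin, loops that left the window did so to lower coordinates alone. The nearest anchor above the window was 240 kb away at beta globin and 10 kb away at alpha globin. The nearest anchors outside the windows on the lower side lay 70 kb away at beta globin and 34 kb away at alpha globin, the last being the near outer region itself. In contrast to alpha globin, 3 long loops with spans of 1385 to 1450 kb passed over the whole beta window, from 110540001 to 110560000 to 111932501 to 112010000.

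The loops of the loci differed in span and in the grid on which they were listed, but the intervals of the loci overlapped. The median span was 90 kb at alpha globin (11 loops, 95% interval from order statistics 34 to 182 kb) and 200 kb at beta globin (4 loops, 90 to 300 kb, the full range, since 4 values give no 95% interval). The median of the whole list was 175 kb, that of chromosome 11 was 148 kb and that of chromosome 7 was 145 kb. With both anchors required in the window the medians were 56 kb at alpha globin (9 loops) and 120 kb at beta globin (2 loops). That requirement limits spans to about the width of the window, 150 kb at alpha globin and 200 kb at beta globin. The medians under it are therefore not comparable with each other or with that of the list. On the 2 kb and 5 kb grids alone the medians were 56 kb at alpha globin and, from 1 loop, 300 kb at beta globin. Of the alpha globin loops, 6 of 11 (54.5%, 95% Wilson interval 28.0 to 78.7%) were shorter than 100 kb. At beta globin 1 of 4 loops was (25%, 4.56 to 69.9%). The share was 26.6% in the list, 33.9% on chromosome 11 and 32.0% on chromosome 7. Loops of the 2 kb grid made up 8 of 11 at alpha globin (72.7%, 43.4 to 90.3%), 0 of 4 at beta globin (0 to 49.0%) and 20.6% of the list. On the chromosomes of the loci the shares were 28.1% for chromosome 11 and 26.1% for chromosome 7. The longest 2 kb grid loop of the list spanned 198 kb, so grid and span move together. The intervals treat loops as independent, which loops sharing anchors are not.

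**Figure D4:**
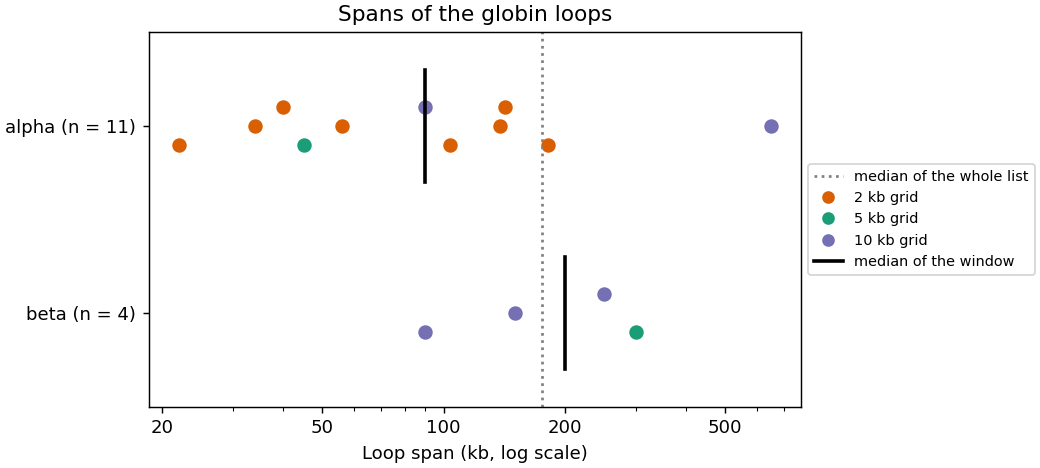
Span of each globin loop in kb on a log scale, coloured by coordinate grid, with the median of each window (black) and of the whole list (dotted). At alpha globin 9 of the 11 loops span less than the list median of 175 kb, and at beta globin 2 of the 4.

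To place the loci in the list, windows of the same width were tiled over all chromosomes and their loops counted by the same rule. Of 17143 windows of 150 kb, 594 (3.46%) had 11 or more loops, the count at alpha globin, and the median was 1. Chromosome 11 is dense in loops, and 63 of its 792 windows (7.95%) had 11 or more. Counts of loops with both anchors inside were lower. At alpha globin 9 loops were of this kind, and 2 of the 17143 windows (0.0117%) had 9 or more, and on chromosome 11 there were 0. When windows were started every 10 kb, a setting chosen after the data were examined, 27 of 257029 (0.0105%) had 9 or more. They lay at 8 places, of which alpha globin was 1, and the highest count was 11, on chromosome 12. The globin windows were drawn around known genes and the tiles were not, so these shares describe the list and are no test.

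The beta globin counts were reached by many windows. Of 12856 windows of 200 kb, 4129 (32.1%) had 4 or more loops, and the median was 1. With both anchors inside, 1547 (12.0%) had 2 or more. Windows without any loop made up 45.5% of these windows.

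**Figure D5:**
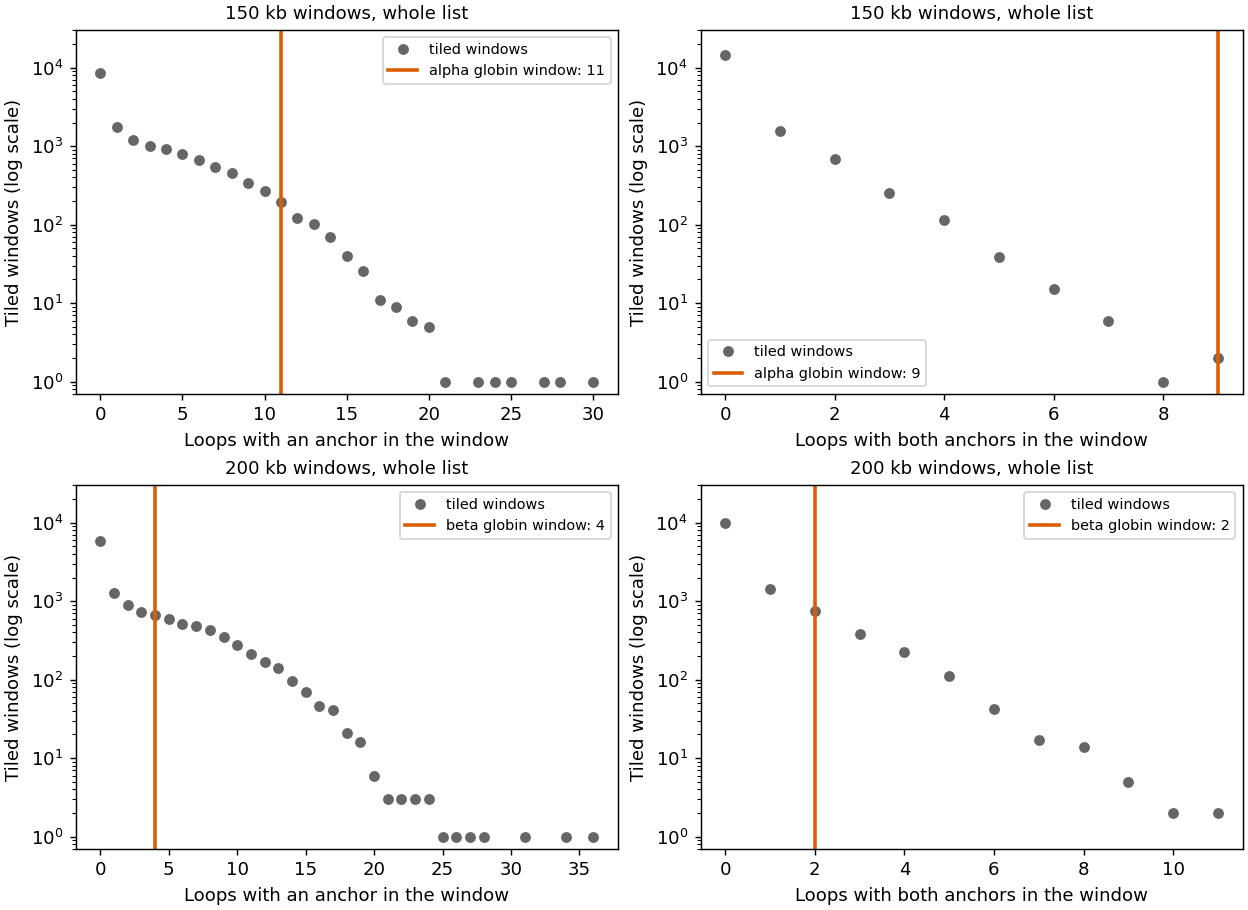
Number of tiled windows (log scale) with each count of loops, for loops with at least 1 anchor in the window (left) and with both anchors in it (right); the top row uses 150 kb windows and the bottom row 200 kb windows, and the line marks the globin window. The alpha globin count of 9 internal loops equals the highest count among the tiles, and both beta globin counts lie among those of many tiles.

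All 3 alpha globin domains contained the whole window. The smallest ran from 32018334 to 32255000, a size of 236.667 kb, and held no other domain. Its start, counted from 0, lay 3333 bp past a multiple of 5 kb, whereas all other edges of the alpha globin domains fell on such multiples. Sizes and distances that use this start are given as listed. The smallest domain contained 10 of the 11 loops, all but the 650 kb loop, and no other loop of the list. Its 4.23 loops per 100 kb compared with a median of 0 and an upper quartile of 0.909 over 13483 domains, and 0.260% of domains (35, itself included) were at least as dense. This density counts loops, so the overlapping loops of 138 and 142 kb, and those of 40 and 45 kb, each entered separately. No density with each contact counted once was computed. The other domains ran from 31545001 to 32655000, 1110 kb, and from 31525001 to 33025000, 1500 kb. They contained all 11 loops, with 2.16 and 1.67 loops per 100 kb.

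The anchors in the alpha globin window lay inside these domains. Of 11 distinct anchors in the window, 0 had a midpoint within 20 kb of a domain boundary and 3 within 40 kb, all in region 5. No listed boundary lay between the ends of the smallest domain, and both ends were outside the window. An anchor of the window could therefore not have a midpoint within 20 kb of a boundary, so the 0 follows from the window. Over the list 26.6% of anchors lay within 20 kb and 44.2% within 40 kb, shares with which the alpha globin counts are not comparable. Region 5 was 30 kb from the end of the smallest domain, and the anchor of the near outer region was 22.7 kb from its start. The 182 kb loop between them was thus the widest loop inside that domain.

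At beta globin the smallest domain ran from 110875001 to 111111666, an end 1666 bp past a multiple of 5 kb, unlike the other domain edges there. Its size was 236.666 kb, and it contained 2 loops, or 0.845 per 100 kb, a density that 26.5% of domains reached. A domain of 520 kb, from 110575001 to 111095000, contained all 4 loops of the window and 1 other. Its neighbour, from 111095001 to 111395000, overlapped the window by 5 kb and contained 0 loops. The remaining domains, of 1770 and 1870 kb, both started at 109625001, ended at 111395000 and 111495000 and contained 15 loops each.

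The boundary inside the beta globin window, at 111095000, lay 10 kb from the midpoint of the anchor at 111080001 to 111090000. Of the 5 distinct anchors in the window, 2 were within 20 kb of a boundary, that one and the anchor at the lower edge, 17.5 kb from a boundary at 110885000. All 11 alpha globin loops and all 4 beta globin loops had both anchor midpoints inside at least 1 domain, as had 86.5% of the list.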

How the data were processed

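Micro-C libraries of 9 untreated and 9 auxin-treated samples were made, per the labels' protocols, by micrococcal nuclease digestion, ligation and isolation of fragments of dinucleosome size. The authors deposited 1 table of loops and 1 of domains, neither tied to a sample, with genome positions in bp and no header, score or value per sample. The build, mm9, is that of the submitters' processing notes. The aligner, the callers, their filters and the samples behind each list are not given in the sources used here.

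Starts were read as counted from 0 and are printed counted from 1. Span is the distance between anchor midpoints. Anchors overlapping by 1 bp or more were merged into regions. Loops with both anchors starting at multiples of 10 kb were put on the 10 kb grid, other loops whose anchors start at multiples of 5 kb, or with an anchor at an odd multiple of 2.5 kb, on the 5 kb grid, and the rest on the 2 kb grid, so a 2 kb loop that falls on such multiples is misplaced. Tiles had the width of the globin windows and ran from the first listed coordinate of each chromosome. No test was made. Python 3.11.15, pandas 2.3.3, scipy 1.17.1, networkx 3.6.1 and matplotlib 3.10.9 were used, and the functions were tested on simulated lists. Promoters and gene order came from RefSeq tables of GRCm38.p6. The rule for what is named was to describe every loop of the windows, with genes named in the order of the table alone. The number of columns of per-sample values without a sample was 0. The windows, members and measures were chosen with earlier results of these data known.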

Additional observations from a re-analysis of the deposited data

How the results depend on the processing

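The 17 counts and shares above were recomputed under 54 alternatives, 8 of them chosen after the data were examined, and 33 stayed within 1.5 times the count or within the interval of the value. For the beta globin median span that interval was the full range of the 4 loops, so no median of a subset could fall outside it. The alternatives beyond these limits follow. At alpha globin, 7 loops remained with the window narrowed by 20 kb on each side. Fewer loops than alpha globin were found in 92.0% of windows on chromosome 11 alone, in 93.1% of windows with at least 1 loop and, with each contact counted once, in 93.8%, compared with 96.5%. Merging identical anchors only gave 11 regions and 0 groups of 4, and merging anchors within 10 kb also gave 0. The domains that hold no other numbered 1, as did those inside no other. Within 40 kb of a boundary lay 3 anchors. At beta globin, 2 loops had both anchors in the window, and 1 was on the 2 kb and 5 kb grids. Fewer loops than beta globin were found in 62.8% of windows on chromosome 7 and in 41.1% of windows with at least 1 loop, compared with 67.9%, and fewer internal contacts in 88.6% with each contact counted once, compared with 88.0%. Of its 5 domains, 3 contained the whole window, 2 held no other and 1 was inside no other, and widening the window by 50 kb gave 10. Domains that hold no other contained 2 of the 4 loops, and 1 anchor lay within 10 kb of a boundary.

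No paired analysis was possible because neither table separates the samples. A replicate could not be left out, and auxin could not be examined, for the same reason.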
